A study of Mus musculus with 15 samples.

Results

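The SLC25 genes encode the mitochondrial carriers, the membrane proteins that exchange nucleotides, organic acids, amino acids, cofactors and iron between the cytosol and the mitochondrial matrix. Members were all symbols of the deposited count table that begin with Slc25a and that averaged at least 0.5 CPM, the count scaled to the column's total, over the 15 libraries. Of 44 such symbols among 22798 in the table, 39 met this floor, and all 39 were also among the 17975 genes tested. The nearest members above the floor were Slc25a13 at 0.61 CPM and Slc25a53 at 0.87 CPM. The 5 symbols below it were Slc25a18 (0.20 CPM), Slc25a2 (0.20 CPM), Slc25a48 (0.04 CPM), Slc25a43 (0.03 CPM) and Slc25a5-ps (0.01 CPM).

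Total RNA came from skeletal muscle of mice of strain C57BL/6 at an age of 12 months, all fed a normal diet and starved overnight. The libraries were 6 of sedentary wild-type mice, 6 of mice labelled exercise and 3 of mice labelled CD47-KO (CD47-/-), which lack the thrombospondin receptor CD47 by label. The labels name neither the muscle, the kind or length of exercise, nor the construction of the knockout, and they do not say whether libraries came from separate animals, so the spread behind each p-value is that among libraries and may be technical. By its title, the study is about CD47 blockade, exercise and mitochondrial energetics in muscle.

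Mitochondrial carriers sit mostly in the inner membrane, are made in the cytosol and reach the membrane through the TOM and TIM22 import machinery. In muscle the ADP/ATP and phosphate carriers serve ATP synthesis, the aspartate-glutamate and oxoglutarate-malate carriers move reducing equivalents of NADH inward as the malate-aspartate shuttle, and the carnitine-acylcarnitine carrier brings in fatty acids for oxidation. In bulk tissue, fewer cells of a type and less RNA per cell cannot be told apart.

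Total counts ranged from 50928458 to 84364189 per library. Levels below are CPM scaled by TMM library factors. Differences are on the log2 scale, each with a standard error (SE), and adjusted p-values are those of edgeR's quasi-likelihood test over the whole table (Benjamini-Hochberg). Cd47 itself was at 11.9 ± 0.356 CPM (SD, n = 3) in the CD47-KO libraries against 14.3 ± 1.77 (SD, n = 6) in sedentary, a log2 fold change of -0.26 (adjusted p = 0.295 by edgeR). No decrease passed the test, so "CD47-KO libraries" below refers to the label alone. The share of counts from mitochondrially encoded genes ran from 4.77 to 18.2% among sedentary, from 4.49 to 12.5% among exercise and from 18.1 to 19.2% among CD47-KO libraries. All 6 skeletal muscle markers were detected in each group, with a summed level of 109536 to 199311 CPM in sedentary libraries, as were all 7 fast fibre and all 7 slow fibre markers. Of the markers of brown adipocytes, 3 of 4 were in the table, at a summed 1.13 to 8.56 CPM. The sums were 95.9 to 568 CPM for 7 adipocyte markers, 149 to 395 for 6 endothelial, 173 to 1236 for 7 erythroid, 9.14 to 51.3 for 7 macrophage and 0.281 to 38.5 for 6 hepatocyte markers, of which Alb, Ahsg and Ttr were at 0 in all exercise libraries and Ttr in all CD47-KO libraries. The sedentary and exercise libraries also formed different sets by title number, 1 to 3 and 4 to 6, which no label names. Exercise is compared with sedentary within each set as well. The CD47-KO libraries are compared with all 6 libraries of a group together.

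RefSeq promoters of GRCm38.p6 (250 bases before the start) were present for 30 of the 39 members. The 4 windows below belong to members that the results turn on: Slc25a36 was called higher in the CD47-KO libraries, Slc25a25 differed between the sets of library numbers, and Slc25a20 and Slc25a34 had exercise libraries 4 to 6 wholly above sedentary libraries 4 to 6. Each motif match is shown in capitals with its flanking bases, on the gene's strand. The Slc25a25 window precedes a start inside the annotated gene (chr2:32414487-32451445). Counts are per gene, so transcripts of that start are not told apart from others.
Slc25a25, chr2:32424169-32424256, minus strand: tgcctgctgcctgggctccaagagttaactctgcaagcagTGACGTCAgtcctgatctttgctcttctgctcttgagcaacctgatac
Slc25a36, chr9:97111155-97111242, minus strand: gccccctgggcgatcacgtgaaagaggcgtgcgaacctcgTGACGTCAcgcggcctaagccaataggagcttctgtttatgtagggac
Slc25a34, chr4:141623907-141623993, minus strand: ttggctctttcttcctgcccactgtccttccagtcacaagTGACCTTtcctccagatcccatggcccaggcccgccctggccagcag
Slc25a20, chr9:108662017-108662104, plus strand: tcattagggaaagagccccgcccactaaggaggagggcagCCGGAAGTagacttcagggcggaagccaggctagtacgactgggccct
The letters searched, on both strands, were TGACGTCA (the cyclic AMP response element), AAGGTCA (a recognition motif of nuclear receptors such as ERR, which reads TGACCTT on the opposite strand, as in Slc25a34), CCGGAAGT (an ETS site) and CACGTG (an E-box). They occurred in 1.55%, 4.08%, 2.88% and 6.02% of 32851 promoters, and in 2, 1, 1 and 6 of the 30 members' promoters. In the Slc25a36 window an E-box in lower case lies upstream of the capitals. A match describes letters and not binding, which was not measured.

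Slc25a4 dominated the family. This gene encodes the ADP/ATP carrier of heart and muscle (ANT1), and on the level scale of CPM per kilobase of merged exons it stood at 1080 ± 306 (SD, n = 6) in sedentary muscle. Its share of the members' summed CPM was 56.8 ± 8.19% in sedentary, 53.3 ± 4.72% in exercise and 55.1 ± 0.516% in CD47-KO libraries. The phosphate carrier Slc25a3 came next in sedentary muscle at 114 ± 19.6 CPM per kilobase, and the oxoglutarate-malate carrier Slc25a11 followed at 92.3 ± 17.0, within the spread of Slc25a3. Slc25a12, the aspartate-glutamate carrier aralar of muscle and brain, stood at 43.0 ± 8.84, apart from its neighbours on both sides. Its liver paralogue Slc25a13 (citrin) was next to last in the order at 0.121 ± 0.130 CPM per kilobase. Without sedentary library 1, the highest, it stood at 0.0695 ± 0.0320 (SD, n = 5), below Slc25a53, so the order of these 2 genes turned.

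Below these 4 genes the order was less resolved. The calcium-regulated ATP-Mg/phosphate carrier Slc25a25 (19.3 ± 8.25), the ubiquitous ADP/ATP carrier Slc25a5 (19.2 ± 3.30) and the carnitine-acylcarnitine carrier Slc25a20 (17.0 ± 4.28) did not differ beyond their spread in CPM per kilobase. The iron carrier Slc25a28, Slc25a34, the pyrimidine nucleotide carrier Slc25a33, the branched-chain amino acid carrier Slc25a44, the glutathione carrier Slc25a39 and the NAD carrier Slc25a51 lay from 11.2 down to 8.74 and overlapped each other. At the low end, Slc25a53 stood at 0.109 ± 0.0130, Slc25a13 at 0.121 and the glutathione carrier Slc25a40 at 0.247 ± 0.0901. Lengths are merged exons of all transcripts of the annotation and can include retained introns (5550 bases for Slc25a3), which lowers the value per kilobase.

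**Figure D1:**
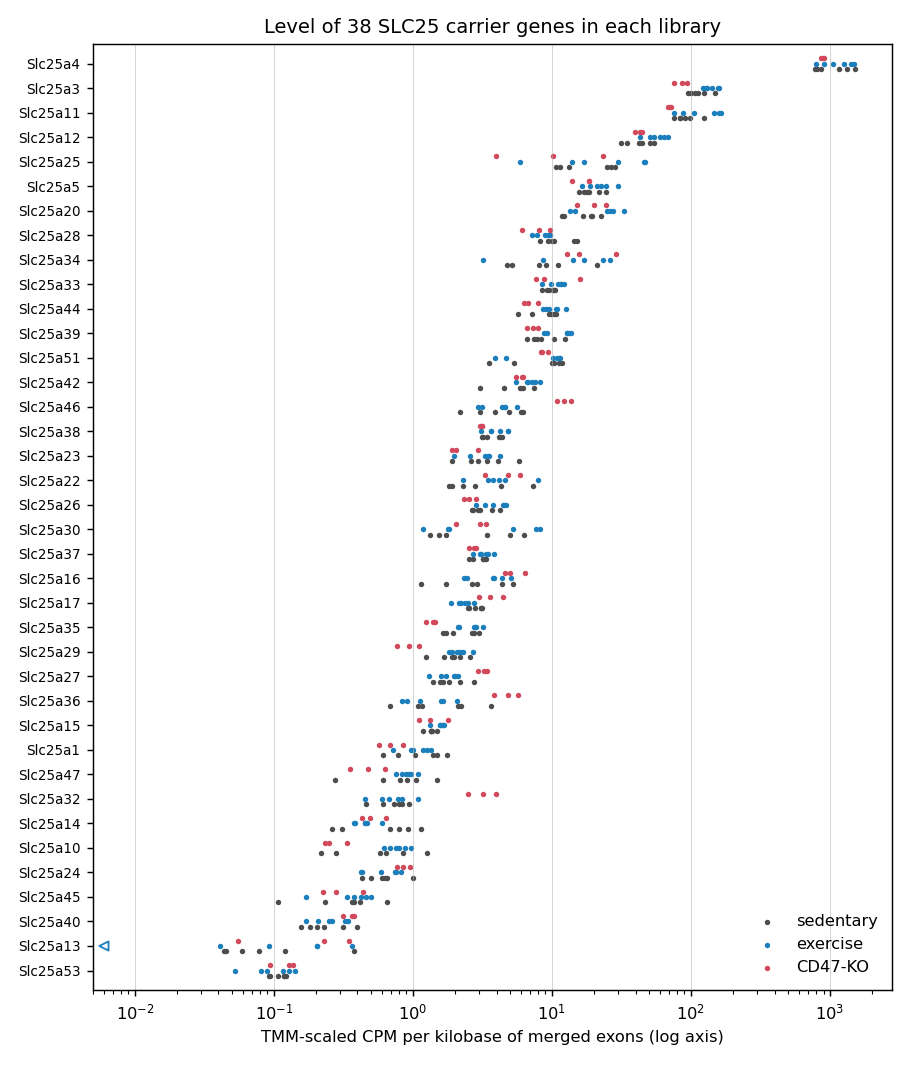
Level of 38 carrier genes in every library, in TMM-scaled CPM per kilobase of merged exons on a log axis, ordered by the sedentary mean, with 1 point per library (grey sedentary, blue exercise, red CD47-KO) and an open triangle at the left edge for the 1 library with 0 counts of Slc25a13. Slc25a4, at 1080 in sedentary muscle, lies apart from Slc25a3 at 114, and the CD47-KO points lie right of the others for Slc25a32 and Slc25a46.

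The first comparison set exercise beside sedentary. No carrier gene passed the test, as was true of all genes tested (0 of 39 members, 0% of 17975 genes by edgeR). Without adjustment, 2 members had a p under 0.05, Slc25a39 and Slc25a12, against 3.70% of all genes (665 genes). DESeq2 called 9 genes and limma-voom 0 of all genes, none of them members. The log2 fold change was above 0 in 28 of 39 members, with a median of 0.15 beside -0.03 over all genes.

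Among the adenine nucleotide and phosphate carriers, all 3 had a log2 fold change above 0. Slc25a4 (chr8:46206797-46211284, minus strand) had a lowest, median and highest level of 1834, 2399 and 3561 CPM in sedentary and 1871, 2716 and 3508 in exercise libraries, a difference of 0.09 (SE 0.21). Both groups split by library number, with every library of numbers 1 to 3 below every library of numbers 4 to 6. For Slc25a3 (chr10:91116574-91124059, minus strand) the levels were 530, 607 and 826 CPM in sedentary and 679, 758 and 890 in exercise, a difference of 0.29 (SE 0.15). The 4 lowest exercise libraries lay within the sedentary range. Slc25a5 had 25.8, 29.9 and 40.4 CPM in sedentary and 27.1, 35.9 and 49.6 in exercise, a difference of 0.22 (SE 0.17), and the groups overlapped. Slc25a4 exceeded Slc25a5 in CPM 81.6 ± 21.8 times in sedentary, 73.8 ± 9.64 times in exercise and 75.7 ± 13.5 times in CD47-KO libraries. Reads of Slc25a5 may be shared with its processed copies, so its level is less certain.

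Of the carriers of the malate-aspartate shuttle and of fatty acid entry, Slc25a11, Slc25a12 and Slc25a20 had log2 fold changes of 0.40 to 0.46, none of them called. For Slc25a11 (chr11:70644196-70647479, minus strand) the lowest, median and highest levels were 159, 185 and 262 CPM in sedentary and 161, 268 and 351 in exercise, a difference of 0.42 (SE 0.20). The 3 highest exercise values, 313 to 351 CPM, were all from numbers 4 to 6, and the other exercise libraries lay within the sedentary range. Slc25a12 (chr2:71271063-71367749, minus strand) had 230, 318 and 398 CPM in sedentary and 316, 419 and 502 in exercise, a difference of 0.40 (SE 0.17). The groups overlapped in the range of 316 to 398 CPM. Slc25a20 (chr9:108662088-108684641, plus strand) had 57.4, 86.6 and 110 CPM in sedentary and 65.2, 124 and 159 in exercise, a difference of 0.46 (SE 0.24). Its exercise libraries 2 and 3, at 71.4 and 65.2 CPM, were below the sedentary median.

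Slc25a25 and the iron carriers showed no common direction. Slc25a25 (chr2:32414487-32451445, minus strand) had 84.6, 150 and 224 CPM in sedentary and 46.7, 185 and 366 in exercise libraries, a difference of 0.46 (SE 0.48). Its exercise libraries 1 to 3 were above every sedentary library and its exercise libraries 4 to 6 were not. Slc25a37 (mitoferrin-1, chr14:69241848-69285112, minus strand) had 15.2, 19.2 and 20.3 CPM in sedentary and 16.4, 19.4 and 23.3 in exercise, a difference of 0.10 (SE 0.13). Slc25a28 (mitoferrin-2) had -0.36 (SE 0.17). The other 2 members of the ATP-Mg/phosphate group, Slc25a23 and Slc25a24, had -0.12 (SE 0.25) and -0.017 (SE 0.24).

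The amino acid carriers were all above 0, at 0.10 to 0.40 over 7 members. Beside Slc25a12 they are the glutamate carrier Slc25a22 with 0.37 (SE 0.35), Slc25a13 with 0.32 (SE 0.81), the ornithine carrier Slc25a15 with 0.22 (SE 0.14), Slc25a44 with 0.21 (SE 0.17), the basic amino acid carrier Slc25a29 with 0.16 (SE 0.18) and the glycine carrier Slc25a38 with 0.10 (SE 0.15). Of the 11 cofactor and nucleotide carriers, 8 were above 0 with a median of 0.09. They ran from -0.41 (SE 0.34) for the pyrimidine nucleotide carrier Slc25a36 to 0.42 (SE 0.17) for Slc25a39. The citrate carrier Slc25a1 had -0.12 (SE 0.26) and the dicarboxylate carrier Slc25a10 0.29 (SE 0.34). Of the 3 carriers related to uncoupling proteins, Slc25a14 had -0.59 (SE 0.33), Slc25a27 -0.08 (SE 0.18) and Slc25a30 0.43 (SE 0.50). Among the 6 with less well defined substrates, Slc25a34 had 0.65 (SE 0.44) and the others lay between -0.10 and 0.21.

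The order of exercise and sedentary values was also read within each set of libraries. In libraries 4 to 6, every exercise value was above every sedentary value for 17 of 39 members (43.6%), where 7.71% of all genes tested had that order. They were Slc25a3 and Slc25a5; the amino acid carriers Slc25a12, Slc25a13, Slc25a15, Slc25a22 and Slc25a29; Slc25a10, Slc25a11 and Slc25a20; the S-adenosylmethionine carrier Slc25a26, Slc25a33, Slc25a39 and the coenzyme A carrier Slc25a42; and Slc25a34, Slc25a35 and Slc25a47. The count was 15 under RLE factors (6.69% of all genes) and 17 in CPM by column total (9.85%). It was 17 to 19 when any 1 of the 6 libraries was left out, where 10.5 to 15.3% of all genes had that order. Every exercise value was below every sedentary value for 4 members (Slc25a14, Slc25a28, Slc25a36 and the peroxisomal carrier Slc25a17), against 6.03% of all genes.

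In libraries 1 to 3 the same order held for 3 members, among them Slc25a25 and Slc25a37, against 4.93% of all genes, and the opposite order for 0 members, against 5.17%. Over all 6 libraries of each group it held for 0 members, against 0.100% of all genes. The median log2 fold change of the members was 0.22 in a fit of libraries 4 to 6 alone and 0.04 in libraries 1 to 3 alone, beside -0.03 and -0.01 for all genes. In libraries 4 to 6 alone 0 members were called by edgeR, and 9 had an unadjusted p under 0.05, against 5.40% of all genes.

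The members with the smallest p in libraries 4 to 6 were Slc25a34 and Slc25a22. Slc25a34 (chr4:141618824-141623821, minus strand), a carrier whose substrate is not well defined, had 45.8, 62.0 and 70.2 CPM in exercise libraries 4, 5 and 6 and 24.1, 21.4 and 13.8 CPM in sedentary libraries 4, 5 and 6. In libraries 1, 2 and 3 it had 38.1, 22.9 and 8.57 CPM with exercise and 56.6, 12.7 and 29.7 without. In libraries 4 to 6 the lowest exercise value, 45.8 CPM, was above the highest sedentary value, 24.1, and in libraries 1 to 3 the groups overlapped. The log2 fold change within libraries 4 to 6 was 1.57 (SE 0.28, adjusted p = 0.651 by edgeR). Slc25a22, which carries glutamate, had 22.7, 27.6 and 25.0 CPM in exercise libraries 4 to 6 against 11.4, 10.9 and 13.7 CPM in sedentary, a log2 fold change of 1.04 (SE 0.19, adjusted p = 0.651 by edgeR).

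Slc25a20 had 127, 134 and 159 CPM in exercise libraries 4 to 6 against 92.6, 94.3 and 57.4 CPM, a log2 fold change of 0.77 (SE 0.25). Slc25a11 had 335, 313 and 351 CPM against 262, 207 and 177 CPM, a log2 fold change of 0.61 (SE 0.21). The trios did not overlap in either gene. The test of whether the exercise difference itself differed between the sets called 0 members and 0% of 17072 genes. In it 3 members had an unadjusted p under 0.05 (Slc25a28, Slc25a34 and Slc25a10), beside 814 of the 17072 genes. The difference between sets is therefore not shown by that test for any member.

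**Figure D2:**
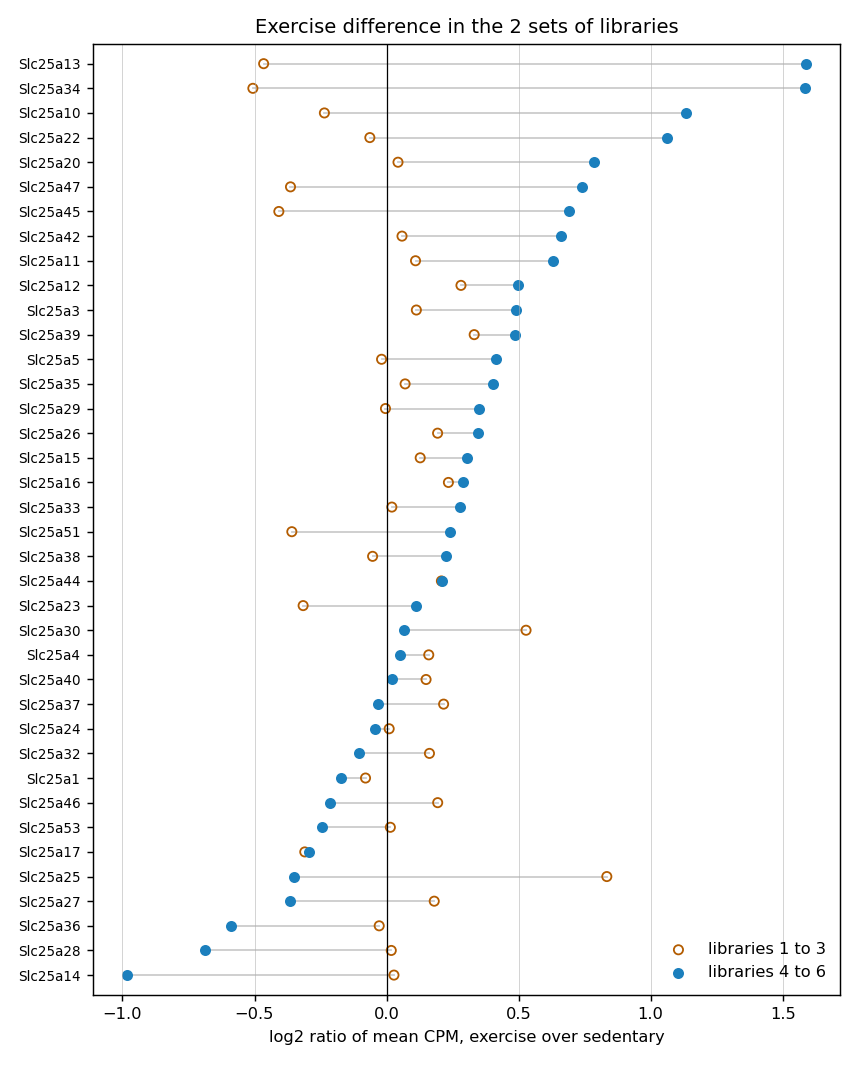
Log2 ratio of mean CPM, exercise over sedentary, for 38 carrier genes in libraries 1 to 3 (open orange circles, 3 libraries a group) and in libraries 4 to 6 (filled blue circles, 3 a group), joined by a grey line and ordered by the latter. Slc25a34 and Slc25a13 lie farthest right in libraries 4 to 6, at 1.58 and 1.59, and both lie left of 0 in libraries 1 to 3, while Slc25a25 lies at 0.83 in libraries 1 to 3 and at -0.35 in libraries 4 to 6.

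Other measures were read by set as well, and some of them separated the sets. The share of mitochondrially encoded counts was 9.01 to 12.5% in exercise and 7.81 to 18.2% in sedentary libraries 4 to 6, and 4.49 to 7.87% and 4.77 to 5.69% in libraries 1 to 3. The summed slow fibre markers overlapped between the sets, at 1254 to 1982 CPM in exercise and 1186 to 3526 CPM in sedentary libraries 4 to 6. In libraries 1 to 3 they were 46.5 to 3578 and 1783 to 20593 CPM, and over all libraries 0 of 7 slow fibre markers had an exercise fold change above 0 and 0 of 7 passed the test. Summed fast fibre markers were 96572 to 108993 CPM in exercise and 107262 to 121973 in sedentary libraries 4 to 6. In libraries 1 to 3 those sums were 141414 to 180842 and 77507 to 159293 CPM. Skeletal muscle markers summed to 133428 to 152083 and 145094 to 157184 CPM in libraries 4 to 6. In libraries 1 to 3 they summed to 178576 to 228942 and 109536 to 199311 CPM. Both sums separated the sets among exercise but not among sedentary libraries. The summed hepatocyte markers did not overlap between the sets, at 16.4 to 38.5 CPM over libraries 1 to 3 and 0.281 to 12.1 CPM over libraries 4 to 6. The part of these measures in the carrier differences was not tested.

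Genes that work with the carriers were read the same way. Of 9 enzymes of the malate-aspartate and carnitine shuttles, 0 passed between exercise and sedentary, 7 were above 0 and the median was 0.26. In libraries 4 to 6, exercise lay wholly above sedentary for 6 of the 9, the malate dehydrogenases Mdh1 and Mdh2, the aspartate aminotransferases Got1 and Got2 and the carnitine palmitoyltransferases Cpt1b and Cpt2, against 7.71% of all genes. In libraries 1 to 3 this held for 1 of the 9, the carnitine acetyltransferase Crat (4.93% of all genes), and the opposite order for 1, Cpt1c (5.17%). The same order in libraries 4 to 6 held for 1 of 3 outer membrane porins (Vdac1), 1 of 4 carriers of the family under other symbols (Mtch2), 2 of 13 import genes (Tomm22 and Tomm40) and 0 of 7 pyruvate carrier and sideroflexin genes, against the same 7.71%. In libraries 1 to 3 exercise lay wholly above sedentary for Vdac1 and Mtch2 as well, again 1 of 3 and 1 of 4. There it also held for 1 of 7 pyruvate carrier and sideroflexin genes (Sfxn5) and 0 of 13 import genes, against 4.93% of all genes. Of the import genes, Tomm20 had the opposite order in libraries 4 to 6 and Timm10 in libraries 1 to 3 (6.03% and 5.17% of all genes).

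The sets of libraries also differed from each other in a fit over both groups, which does not test each group by itself. With group in the model, 9 of 39 carriers were called between numbers 1 to 3 and 4 to 6, against 31.5% of 15571 genes. Higher in numbers 1 to 3 were 3 members (15.8% of all genes) and lower were 6 (15.7%). Slc25a30, related to the uncoupling proteins, was higher by 1.92 (SE 0.20, adjusted p = 5.74e-05 by edgeR). It had 15.5, 28.8 and 22.7 CPM in sedentary and 37.3, 24.0 and 35.4 CPM in exercise libraries 1 to 3, against 5.41 to 8.31 CPM over all libraries 4 to 6, so the sets did not overlap. Slc25a25 was higher by 1.15 (SE 0.35, adjusted p = 0.0240) and Slc25a35 by 0.49 (SE 0.13, adjusted p = 0.0102). The sedentary libraries of Slc25a25 overlapped between the sets, at 105, 224 and 210 against 195, 84.6 and 90.1 CPM, and its exercise libraries did not. For Slc25a35 the exercise libraries overlapped and the sedentary libraries did not.

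Slc25a36 was lower in numbers 1 to 3, with a log2 fold change of -1.16 (SE 0.20, adjusted p = 0.00113 by edgeR), with 6.56 to 11.2 CPM against 15.2 to 35.02 CPM in numbers 4 to 6. Slc25a4 was also lower, with -0.65 (SE 0.13, adjusted p = 0.00304), with 1834 to 2461 CPM against 2753 to 3561 CPM. The remaining 4 were Slc25a46 (-0.69), Slc25a40 (-0.61), Slc25a11 (-0.54) and Slc25a26 (-0.37). For Slc25a40, Slc25a11 and Slc25a26 the sedentary libraries overlapped between the sets and the exercise libraries did not. The summed level of all members was 3707 to 4830 CPM in numbers 1 to 3 and 4535 to 5926 CPM in numbers 4 to 6.

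The second comparison set the CD47-KO libraries beside sedentary. By edgeR, 7 of 39 carriers were called (17.9%), against 20.7% of all genes, a share near the background. The 4 called higher were Slc25a32, Slc25a46, Slc25a36 and Slc25a27, against 11.9% of all genes, and the 3 called lower, among them Slc25a29 and Slc25a35, stood against 8.75%. The members' median log2 fold change was -0.17 beside -0.11 over all genes. Without CD47-KO library 1, 2 or 3 the count of called carriers was 4, 4 and 5. Over all genes the calls then fell as well, from 3719 of 17975 to 2361 of 18540, 2245 of 18445 and 2178 of 18525.

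Slc25a32 (chr15:39091231-39112716, minus strand), the carrier of folate and FAD, rose in the CD47-KO libraries. Its level was 19.3, 15.2 and 24.3 CPM in libraries 1, 2 and 3 of that group, against a lowest, median and highest of 2.80, 4.64 and 5.74 CPM in sedentary. All 3 were above every sedentary library, with a log2 fold change of 2.14 (SE 0.26, adjusted p = 6.50e-05 by edgeR). Slc25a46, an outer membrane member that acts in mitochondrial dynamics and not as a known carrier, had 59.5, 66.5 and 74.5 CPM against 11.8, 24.0 and 33.9 CPM. These groups did not overlap either, with a log2 fold change of 1.49 (SE 0.28, adjusted p = 0.00156). The sedentary mean of Slc25a46 was 16.6 ± 4.73 CPM (SD) in libraries 1 to 3 and 31.1 ± 3.81 CPM in libraries 4 to 6.

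Slc25a36 (chr9:97074961-97111157, minus strand) had 46.7, 55.0 and 36.9 CPM in CD47-KO libraries, against 6.56, 15.7 and 35.02 CPM in sedentary. Its sedentary mean was 9.37 ± 2.47 CPM (SD) in libraries 1 to 3 and 25.5 ± 8.22 CPM in libraries 4 to 6, so the size of the difference depends on the set. The lowest CD47-KO value, 36.9, was just above the highest sedentary value, from library 6, and the log2 fold change was 1.40 (SE 0.41, adjusted p = 0.0216 by edgeR). It was not called without CD47-KO library 1 (adjusted p = 0.0546) or library 2 (adjusted p = 0.104). Slc25a27 (UCP4, chr17:43641891-43667214, minus strand) had 11.6, 12.8 and 13.5 CPM against 5.50, 6.83 and 10.9 CPM, again without overlap. Its log2 fold change was 0.76 (SE 0.22, adjusted p = 0.0197), and it was not called without CD47-KO library 2 (adjusted p = 0.0873) or library 3 (adjusted p = 0.0722).

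Slc25a29 (chr12:108825873-108835883, minus strand), a carrier of basic amino acids, fell. It had 2.02, 2.45 and 2.89 CPM in the libraries labelled CD47-KO and 3.26, 5.10 and 6.70 CPM as the lowest, median and highest of sedentary. All 3 values were below the sedentary range, with a log2 fold change of -1.04 (SE 0.24, adjusted p = 0.00566 by edgeR), which was not called without CD47-KO library 1 (adjusted p = 0.0557).

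Slc25a35 (chr11:68968131-68974365, plus strand), of less defined substrate, had 5.31, 4.57 and 5.11 CPM against 6.04, 8.48 and 11.0 CPM, with a log2 fold change of -0.75 (SE 0.23, adjusted p = 0.0273 by edgeR). Its call was lost without sedentary library 2 (adjusted p = 0.0666) and without CD47-KO library 1, 2 or 3 (adjusted p = 0.0945, 0.0971 and 0.107). The call was also lost with no filter on low counts (adjusted p = 0.0523 by edgeR) and with only the 2 groups compared (adjusted p = 0.0868). The counting's strand setting is not given in the sources used here, and exons of Slc25a35 overlap 1151 bases of Rangrf on the opposite strand. A smaller overlap on the opposite strand was 383 bases of Slc25a46 with B930094E09Rik. Values of these genes can include reads of the partner.

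The carriers of ATP synthesis and fuel entry gave no call against sedentary. Slc25a4 had 2109, 2117 and 2026 CPM in the CD47-KO libraries, all within the sedentary range of 1834 to 3561 CPM, with a log2 fold change of -0.29 (SE 0.26). Slc25a3 had 417, 523 and 476 CPM, all below the lowest sedentary value of 530, with -0.43 (SE 0.19, adjusted p = 0.121 by edgeR). Slc25a5 had 23.1, 30.4 and 30.6 CPM against 25.8 to 40.4 CPM (-0.17, SE 0.20). Slc25a11 had 145, 153 and 149 CPM, below the lowest sedentary value of 159, with -0.39 (SE 0.25).

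Slc25a12 had 329, 291 and 316 CPM in CD47-KO libraries and a log2 fold change of -0.015 (SE 0.21) against sedentary. Slc25a20 had 98.1, 119 and 73.7 CPM and 0.24 (SE 0.29). Both lay around the sedentary medians of 318 and 86.6 CPM. Slc25a25 spread from 31.4 to 183 CPM over the 3 libraries (183, 79.7 and 31.4), with -0.63 (SE 0.61). Slc25a37 had 17.2, 15.2 and 16.5 CPM and -0.17 (SE 0.16).

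The fold changes followed GC content. Over the 39 members, log2 fold change and GC content of the longest transcript had a Spearman correlation of -0.585, beside -0.555 over 17914 genes, given as a description since genes share libraries. The 4 members called higher had a GC content of 40.7 to 49.8% and the 3 called lower of 53.2 to 60.4%. After a correction of each library's trend on GC content, 4 members were called, against 8.94% of all genes. Among them Slc25a32 (1.09, SE 0.22, adjusted p = 0.00598 by edgeR) and Slc25a27 (0.80, SE 0.23, adjusted p = 0.0413) were higher and Slc25a3 (-1.13, SE 0.21, adjusted p = 0.00382) was lower. Slc25a46 then had 0.39 (SE 0.20), Slc25a36 0.31 (SE 0.34), Slc25a29 -0.49 (SE 0.21) and Slc25a35 -0.40 (SE 0.19), none of them called. For Slc25a3, of 43.6% GC, the correction moved the value from -0.43 to -1.13. The members' correlation was then 0.127.

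**Figure D3:**
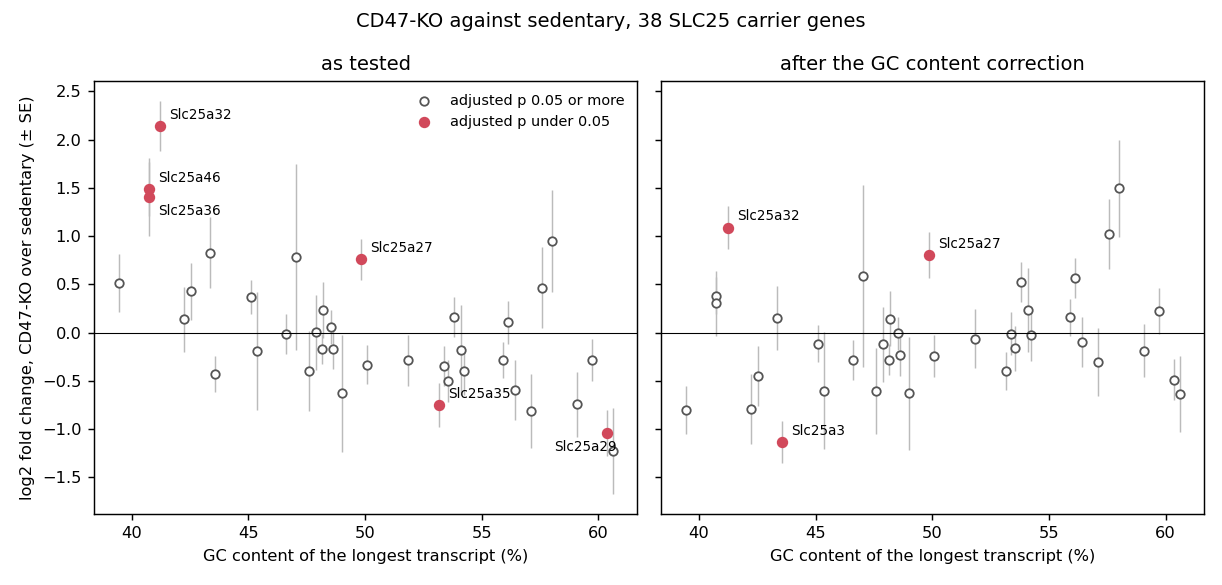
Log2 fold change (± SE) of 38 carrier genes, CD47-KO over sedentary, against the GC content of its longest transcript in percent, as tested (left) and after the GC content correction (right), with genes of adjusted p under 0.05 filled and named. On the left the called genes above 0 lie at 40.7 to 49.8% GC and those below 0 at 53.2 to 60.4%, and on the right Slc25a32, Slc25a27 and Slc25a3 are called.

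Some markers of muscle fibres and the mitochondrial share of counts also differed in this comparison. Of 6 skeletal muscle markers, 3 fell (Acta1, Ckm and Des), and of 7 fast fibre markers 2 (Mylpf and Actn3), where 8.75% of all genes were called lower. In each of these 2 lists 1 marker had a log2 fold change above 0. Of 6 hepatocyte markers 1 fell (Alb), and of 7 macrophage markers 1 rose (Mrc1), where 11.9% of all genes were called higher. Of 7 slow fibre, 7 adipocyte, 3 brown adipocyte, 6 endothelial and 7 erythroid markers 0 were called. The summed muscle markers were 86568 to 124202 CPM in CD47-KO and 109536 to 199311 CPM in sedentary libraries. The share of mitochondrially encoded counts, 18.1 to 19.2%, was near that of sedentary library 6, 18.2%, and above the 4.77 to 9.21% of the other sedentary libraries. Their part in the carrier differences was not tested, and a batch of the 3 CD47-KO libraries cannot be told apart from their group.

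The third comparison set the CD47-KO libraries beside exercise, with the same CD47-KO libraries as above. By edgeR, 13 of 39 carriers were called (33.3%), against 20.6% of all genes. The 5 called higher (12.2% of all genes) were Slc25a32, Slc25a46, Slc25a36, Slc25a27 and Slc25a17. The 8 called lower (8.34%) included Slc25a29, Slc25a35, Slc25a3, Slc25a10, Slc25a39, Slc25a11 and Slc25a26. The median over the members was -0.26, beside -0.08 over all genes. The count was 8, 7 and 8 without CD47-KO library 1, 2 or 3, beside 2488, 2292 and 2329 of all genes (3698 with all libraries). It was 9 without exercise library 4 (3128 of all genes) and 6 after the GC content correction (9.07% of all genes). The same 3 skeletal muscle and 2 fast fibre markers fell against exercise, as did the erythroid marker Hba-a2, where 8.34% of all genes were called lower. In the slow fibre, adipocyte, brown adipocyte, endothelial, macrophage and hepatocyte lists 0 markers were called. The part of the markers was not tested.

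The 7 carriers called against sedentary were called against exercise as well, among them at 2.12 (SE 0.26) for Slc25a32, 1.55 (SE 0.28) for Slc25a46, 1.82 (SE 0.40) for Slc25a36, 0.84 (SE 0.21) for Slc25a27, -1.20 (SE 0.24) for Slc25a29 and -0.96 (SE 0.23) for Slc25a35. The lowest, median and highest exercise levels of Slc25a32 were 2.75, 4.41 and 6.68 CPM, below all 3 CD47-KO libraries. The call of Slc25a27 was lost without CD47-KO library 2 (adjusted p = 0.0557 by edgeR).

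The other 6 were called against exercise only, which does not show that the 2 comparisons differ, since they share the CD47-KO libraries and exercise against sedentary gave no call. Slc25a3 had 417, 523 and 476 CPM against 679, 758 and 890 CPM, a log2 fold change of -0.72 (SE 0.19, adjusted p = 0.0131 by edgeR). The groups did not overlap, and the call was lost without CD47-KO library 1 (adjusted p = 0.111) or 3 (adjusted p = 0.0710). Slc25a11 had 145, 153 and 149 CPM against 161, 268 and 351 CPM, a log2 fold change of -0.81 (SE 0.26, adjusted p = 0.0341). Its 3 CD47-KO values were below the lowest exercise library, and the call was lost without any 1 of the CD47-KO libraries or of exercise libraries 4, 5 and 6 (adjusted p up to 0.138).

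Slc25a10 (chr11:120491840-120499187, plus strand), the dicarboxylate carrier, had 0.868, 1.17 and 0.802 CPM against 2.16, 2.69 and 3.34 CPM in exercise, a log2 fold change of -1.52 (SE 0.45, adjusted p = 0.0258 by edgeR). The groups did not overlap, and the call was lost without exercise library 4 (adjusted p = 0.0502) or any CD47-KO library (up to adjusted p = 0.123). Slc25a39 (chr11:102402985-102407946, minus strand), a glutathione carrier, had 20.02, 21.7 and 18.3 CPM against 24.4, 35.4 and 38.1 CPM, a log2 fold change of -0.70 (SE 0.22, adjusted p = 0.0319). Slc25a26 (chr6:94500331-94604672, plus strand), which brings S-adenosylmethionine into mitochondria, had 13.6, 11.3 and 12.2 CPM against 13.7, 19.7 and 22.4 CPM, a log2 fold change of -0.61 (SE 0.20, adjusted p = 0.0434). Both were below the exercise range in all 3 libraries, Slc25a26 by little. Each kept its call in 2 of 9 fits that left out a library, Slc25a39 without exercise library 2 or 3 and Slc25a26 without exercise library 1 or 3 (adjusted p otherwise up to 0.164 and 0.167).

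Slc25a17 (chr15:81318911-81360812, minus strand), a peroxisomal carrier of coenzyme A, FAD and NAD, had 10.2, 12.8 and 8.47 CPM against 5.36, 6.57 and 7.83 CPM. All 3 CD47-KO values were above the exercise range, with a log2 fold change of 0.67 (SE 0.18, adjusted p = 0.0127 by edgeR), lost without CD47-KO library 2 (adjusted p = 0.152) and after the GC content correction (0.20, adjusted p = 0.605). Exons of Slc25a11 overlap 189 bases of Rnf167, those of Slc25a26 144 bases of Lrig1 and those of Slc25a10 228 bases of Gm11788, all on the opposite strand.

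After the GC content correction the calls against exercise included Slc25a32 (1.00, SE 0.22) and Slc25a27 (0.94, SE 0.23) higher and Slc25a29 (-0.71, SE 0.21), Slc25a3 (-1.44, SE 0.22) and Slc25a40 (-0.98, SE 0.25) lower. The calls lost were those of Slc25a46 (0.34), Slc25a36 (0.63), Slc25a17 (0.20), Slc25a35 (-0.61), Slc25a10 (-1.03), Slc25a39 (-0.22), Slc25a11 (-0.43) and Slc25a26 (-0.49), with adjusted p of 0.0643 to 0.672 by edgeR. Over the members, log2 fold change and GC content had a Spearman correlation of -0.616 before and 0.025 after the correction. Slc25a40, a glutathione carrier of 39.4% GC, had 0.44 (SE 0.30) without the correction, so its direction turned with it.

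**Figure D4:**
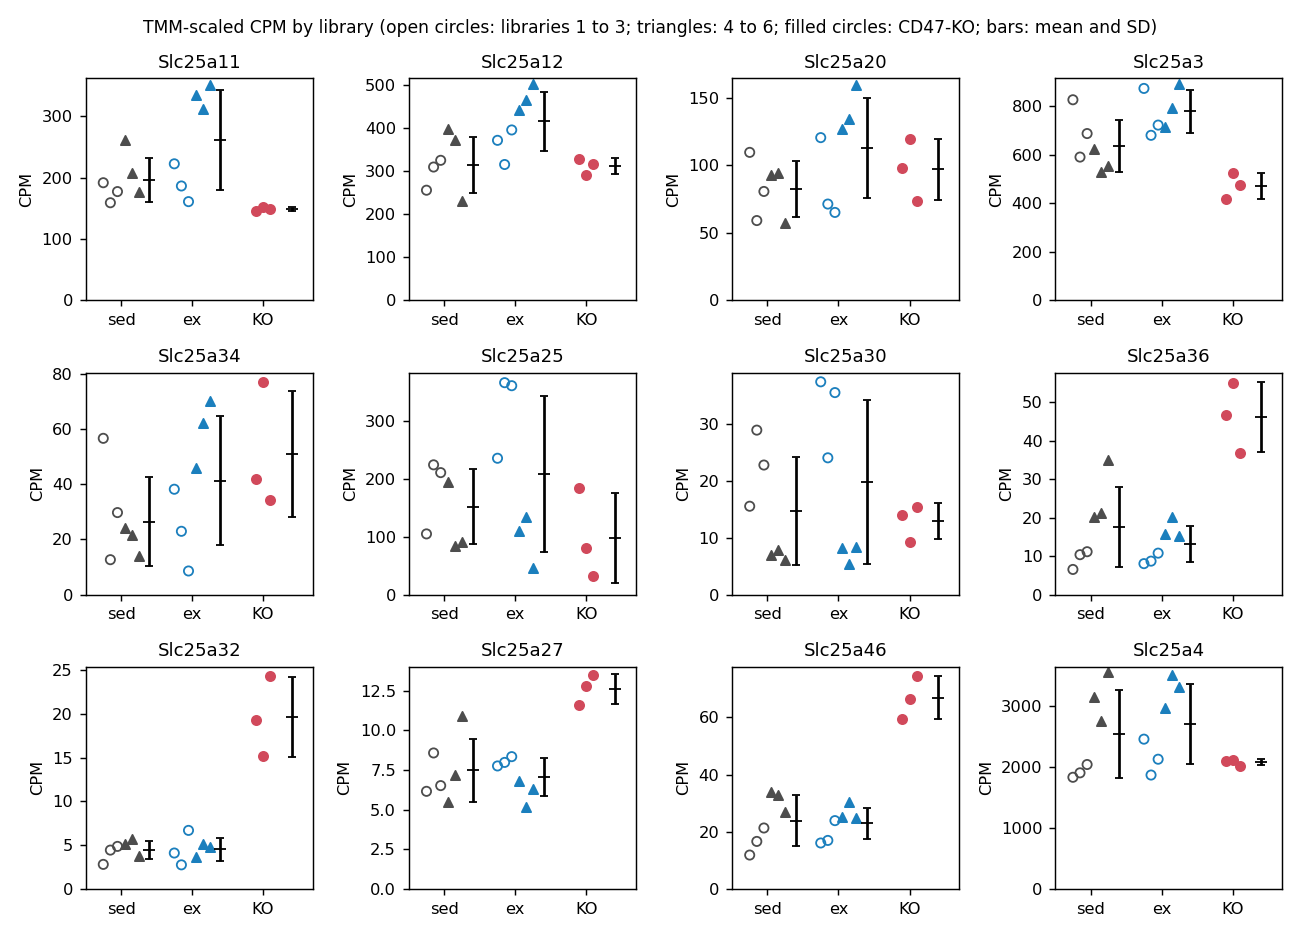
TMM-scaled CPM of 12 carrier genes in every library by group (sed sedentary, ex exercise, KO CD47-KO), with open circles for libraries 1 to 3, triangles for libraries 4 to 6, filled circles for the CD47-KO libraries, and the mean with SD beside each group. The CD47-KO libraries lie apart from both other groups in Slc25a32 and Slc25a46. In Slc25a36 and Slc25a27 their lowest values (36.9 and 11.6 CPM) are just above the highest sedentary values (35.02 and 10.9 CPM). Slc25a30 and Slc25a4 separate libraries 1 to 3 from 4 to 6.

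Of the 8 carriers fixed for values by library, those not called against exercise either were Slc25a4 at -0.38 (SE 0.27), Slc25a5 at -0.39 (SE 0.21), Slc25a12 at -0.41 (SE 0.21), Slc25a20 at -0.22 (SE 0.29), Slc25a25 at -1.09 (SE 0.62) and Slc25a37 at -0.27 (SE 0.16). All 6 were below 0. The remaining members gave no call in any comparison of groups. Slc25a1 had -0.74 (SE 0.33) and -0.62 (SE 0.33) in CD47-KO against sedentary and exercise, and Slc25a47 had -0.81 (SE 0.39) and -0.91 (SE 0.39). Slc25a16, linked to mitochondrial coenzyme A, had 0.83 (SE 0.37) and 0.56 (SE 0.37), and Slc25a34 0.95 (SE 0.53) and 0.31 (SE 0.54). Slc25a51, which carries NAD, had 0.0038 (SE 0.39) and 0.0088 (SE 0.39). In both comparisons Slc25a13, Slc25a22, Slc25a24, Slc25a33, Slc25a40 and Slc25a53 were above 0, and Slc25a23, Slc25a28, Slc25a30, Slc25a38, Slc25a44 and Slc25a45 below. Slc25a14, Slc25a15 and Slc25a42 changed sign between the 2 and were within 0.40 of 0 in each.

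The summed level of all 39 members was 4408 ± 661 CPM (SD, n = 6) in sedentary, 5023 ± 807 (SD, n = 6) in exercise and 3782 ± 125 (SD, n = 3) in CD47-KO libraries, or 0.435 ± 0.0638, 0.496 ± 0.0992 and 0.404 ± 0.0371% of counts. The CD47-KO range of 3639 to 3873 CPM overlapped the sedentary range, which began at 3707, and lay below the exercise range, which began at 3950. Slc25a3 and Slc25a4 made up 71.6, 69.0 and 67.6% of the members' counts in the 3 groups, so these sums follow mainly those 2 genes.

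Genes that work beside the carriers gave these calls in the CD47-KO comparisons. Of 4 relatives under other symbols, Mtch1, an outer membrane member of the family, fell in both, with a log2 fold change of -1.01 (SE 0.16, adjusted p = 0.000504 by edgeR) against sedentary and -1.06 (SE 0.16, adjusted p = 0.000278) against exercise. Its level was 17.3 ± 0.674 CPM against 34.9 ± 4.58 and 36.2 ± 4.23 CPM. After the GC content correction Mtch1 had -0.55 and -0.60, both still called. Mtch2, at -0.22 and -0.34 and not called before it, then had -1.14 (adjusted p = 0.00236 by edgeR) and -1.32 (adjusted p = 0.000762). The uncoupling protein Ucp3, at 444 ± 31.6 CPM in CD47-KO and 432 ± 107 in sedentary, was not called. Of 13 import genes, 2 rose (Tomm70a and Timm8a1) and 1 fell (Timm13) against sedentary, beside 20.7% of all genes called. Against exercise 2 rose (Tomm70a and Timm9) and 2 fell (Timm13 and Tomm22), beside 20.6%. Tomm70a, the receptor that carriers meet at the outer membrane, rose by 1.16 (SE 0.19, adjusted p = 0.000597), a value that was 0.0043 and not called after the GC content correction. That correction also ended the calls of Timm8a1, Timm13 and Timm9 (adjusted p = 0.120 to 0.979 by edgeR). With it Tomm22 (-1.04 and -1.14) and Agk (-1.15 and -1.50) were lower in both comparisons. Without it the values were -0.65 and -0.76 for Tomm22 and -0.11 and -0.46 for Agk.

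Of 9 shuttle enzymes, Mdh2, the mitochondrial malate dehydrogenase, fell, with a log2 fold change of -0.84 (SE 0.23, adjusted p = 0.0147 by edgeR) against sedentary and -1.17 (SE 0.23, adjusted p = 0.00185) against exercise. The call against sedentary was lost after the GC content correction (-0.68, adjusted p = 0.109) and that against exercise was not (-0.98, adjusted p = 0.0231). Its levels were 469 ± 43.8 CPM in CD47-KO, 840 ± 101 in sedentary and 1057 ± 263 in exercise libraries. Against exercise Got2 (-0.93, SE 0.24) and Crat (-0.63, SE 0.20) fell as well, calls that were lost after the correction (-0.53, adjusted p = 0.145, and -0.25, adjusted p = 0.588). Thus 1 of 9 was called against sedentary, beside 20.7% of all genes, and 3 of 9 against exercise, beside 20.6%. Of 3 porins 0 were called in either comparison. Vdac3 had -0.19 and -0.28, at 274 ± 27.3 CPM in CD47-KO, 313 ± 63.2 in sedentary and 334 ± 54.6 in exercise libraries. Only after the GC content correction was it called lower, at -1.58 (adjusted p = 7.3e-05 by edgeR) and -1.78 (adjusted p = 1.91e-05). Of 7 pyruvate carrier and sideroflexin genes 1 rose against exercise, Sfxn4 by 1.15 (SE 0.36, adjusted p = 0.0349), which was lost after the correction (0.77, adjusted p = 0.247). Mpc2, at -0.52 and -0.55 and not called before the correction, was then called lower in both (-1.29 and -1.33).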

How the data were processed

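RNA sequencing libraries of mouse skeletal muscle were analysed from 1 table of gene counts deposited by the authors (15 sample columns, 0 left without a sample). The build was GRCm38, and HTSeq 0.6.1, HISAT2 2.0.1 and Trimmomatic 0.30 are the tools named, per the submitters' processing notes. The strand setting is not given in the sources used here. In the deposited table, values of 4, 8 and 12 made up 32.1 to 50.2% of values from 1 to 15. They may therefore not be single reads, and p-values should be read with that limit. This share separated the CD47-KO group, whose 3 values were 32.1, 33.0 and 33.6%. Every sedentary library (41.7 to 48.5%) and every exercise library (43.6 to 50.2%) was higher. The limit is thus not the same for all groups, and its part in the CD47-KO comparisons was not tested.

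Counts were filtered (filterByExpr), scaled with TMM and fitted with edgeR 4.0.16 (R 4.3.3), quasi-likelihood with robust dispersion, over all 15 libraries, with Benjamini-Hochberg adjustment over 17975 genes and a threshold of 0.05. Standard errors come from the fold change and its F statistic. Alternatives were RLE factors, other filters, limma-voom (limma 3.58.1), DESeq2 1.42.0, only the groups compared, replicate blocks, sets of library numbers, libraries left out, and a GC content correction (lowess, span 0.3, of each library's log2-CPM on GC of the longest transcript, as an offset; 99.7% of genes had a value). Gene positions and exon lengths come from GENCODE annotation of GRCm38, promoters from RefSeq. Libraries were checked for copies, and within a group no pair had a chi-square per degree of freedom under 78.1. Exercise and sedentary libraries of the same title number had correlated deviations of 0.194 to 0.364, and those of other numbers within the same set 0.115 to 0.312, so the correlation does not single out the number. The tests reported had no block.

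In simulated data, 100 genes each were shifted by 1 or 2 on the log2 scale, and 42 and 97 were recovered for exercise against sedentary, 23 and 82 for CD47-KO against sedentary and 18 and 81 for CD47-KO against exercise, with 7, 6 and 3 false calls among 17166, 17192 and 17243 genes.

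Of the members, 1 is counted but not otherwise reported here and is not drawn. A member got its value in each CD47-KO library, with the lowest, median and highest of a group compared, under either of these conditions. It was among the 8 smallest p-values called in a direction of a group comparison, or was 1 of 8 fixed carriers. The rule for each further list was at most 4 genes named. Genes named beyond this rule were chosen after their values were seen, as were Slc25a22, Slc25a30 and Slc25a34 for their values by library. The members and lists were chosen with earlier results of these data known, as were the sets of library numbers and the counts of non-overlapping groups.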

Additional observations from a re-analysis of the deposited data

Results flagged for a closer look

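Of 78 groups of 6 libraries checked (39 carriers in sedentary and in exercise), 2 had 1 library far from the others by Dixon's criterion, where chance gives about 1 in 20. Slc25a13, the aspartate-glutamate carrier citrin, was at 1.44 CPM (110 counts) in sedentary library 1, against 0.168 to 0.461 CPM in the other 5 sedentary libraries. Slc25a15, the ornithine carrier, was at 7.48 CPM (392 counts) in exercise library 2, against 8.82 to 9.48 CPM in the other 5 exercise libraries.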

How the results depend on the processing

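Between exercise and sedentary 0 carriers were called by edgeR in every alternative run, including the replicate block by title number (0) and each library left out (0 to 0). Of all 39 carriers, the log2 fold change turned sign in 15 in numbers 1 to 3 alone and in 5 in numbers 4 to 6 alone. Among the 8 fixed carriers these were Slc25a5 in numbers 1 to 3 alone (-0.026) and Slc25a25 (-0.37) and Slc25a37 (-0.051) in numbers 4 to 6 alone. For the CD47-KO comparisons the GC content correction moved the counts of called carriers to 4 against sedentary (8.94% of all genes) and 6 against exercise (9.07%). Leaving out 1 library gave 4 to 9 and 7 to 13, beside 2178 to 3881 and 2292 to 3554 of all genes. The other alternatives gave 6 to 9 and 10 to 13, beside 2647 to 4849 and 3352 to 5319 of all genes. The highest against sedentary was 9, with a replicate block and without sedentary libraries 1 and 6. The block gave 11 against exercise, and the numbers do not pair these libraries (correlations of -0.102 to 0.149). The count between numbers 1 to 3 and 4 to 6 was 9 with RLE factors and 10 with the GC content correction. Beside these stood 4895 and 4919 of 15571 genes, and the interaction called 0 in both. Exercise lay above sedentary in numbers 4 to 6 for 15 to 19 carriers over the alternatives, beside 6.69 to 15.3% of all genes. These alternatives were all chosen after seeing the data. In the simulation, 23 of 100 genes shifted by 1 on the log2 scale were recovered for CD47-KO against sedentary. Far fewer genes were changed there than the 3719 called in these data, which makes the adjusted threshold stricter. The share missed in these data is therefore not known from it.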
